A study of Mus musculus with 12 samples.

Results

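The 3 dentate gyrus libraries of mice given an AAV9-CB::Fst vector were compared with the 3 libraries of untreated wild type (WT) mice. Membership followed the submitters' labels, and these are 6 of the 12 libraries in the series. All mice were C57BL/6, and bulk sequencing was done on total RNA of the dentate gyrus, the hippocampal region whose main neurons are granule cells. The vector group is described as "OE", with no statement of its genotype at the Fst locus. The other groups were Fst knockouts given AAV9-CB::GFP (GFP vector) and knockouts with no vector (KO), again with 3 libraries each. AAV9 is an adeno-associated virus serotype that enters neurons and glia, and CB is the label's name for the promoter. The labels state no age, no route or dose of the vector and no time after it. It is unclear from the design text whether a library pools several mice or holds a single one. The p-values below therefore measure the spread between libraries, which may not be the spread between mice.

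Follistatin, the product of Fst, is a secreted glycoprotein that binds activins, and with lower affinity some related ligands, and keeps them from their receptors. Activins are dimers of inhibin beta subunits. They signal through type II and type I serine/threonine kinase receptors to SMAD2 and SMAD3, which enter the nucleus with SMAD4 and change transcription. Bone morphogenetic proteins (BMPs) use related receptors and mainly SMAD1, SMAD5 and SMAD9. In the hippocampus, activin A is known as an activity-induced factor that affects spine shape, glutamate receptor function and neuronal survival.

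WT and KO counts were deposited in a different table from those of both vector groups. Group, vector and table thus change together between the Fst vector and WT libraries and cannot be told apart. GFP vector against KO crosses the same pair of tables and also adds an AAV9 vector, with Fst knocked out in both groups, and shares no library with the first comparison. Its values are given beside those of the Fst vector comparison. Depth was 8081824 to 11331337 counts and 20915 to 22235 detected genes per library. The share of ribosomal RNA was 0.575 to 0.679% of counts in Fst vector M2, Fst vector F, WT F1, GFP vector M2 and KO M2, and 0.00919 to 0.0211% in the other libraries. Mitochondrial transcripts took 2.49, 3.33 and 3.19% of counts in the Fst vector libraries M1, M2 and F, against 3.02, 3.44 and 2.89% in WT M1, F1 and M2. Transcripts of the X-inactivation gene Xist and the Y-linked gene Ddx3y matched the sex in the title of all 12 libraries. The written descriptions give another sex for WT F1, WT M2, KO F1 and KO M2, and libraries are named here by their titles. Levels are CPM, the count of a gene scaled by the total of its library to the usual unit of sequencing depth.

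Fst (chromosome 13, 114452290 to 114458951, minus strand, GRCm38) was read 2078, 1870 and 1497 times in Fst vector M1, M2 and F, and 34, 33 and 51 times in WT M1, F1 and M2. These counts equal 204, 189 and 166 CPM with the vector and 3.57, 3.54 and 4.50 CPM in WT. The vector group's mean of 186 ± 19.3 CPM (SD, n = 3) was 48.2-fold the WT mean of 3.87 ± 0.547 CPM (SD, n = 3). The log2 fold change was 5.53 ± 0.15 (SE here and below; edgeR quasi-likelihood test, adjusted p = 1.94e-08). GFP vector libraries held 0, 1 and 0 Fst counts and KO libraries 2, 4 and 2. A count of 0 allows up to 3 counts, or 0.265 to 0.371 CPM over the 12 libraries. What share of the Fst counts came from the vector rather than from the mouse gene was not tested.

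**Figure D1:**
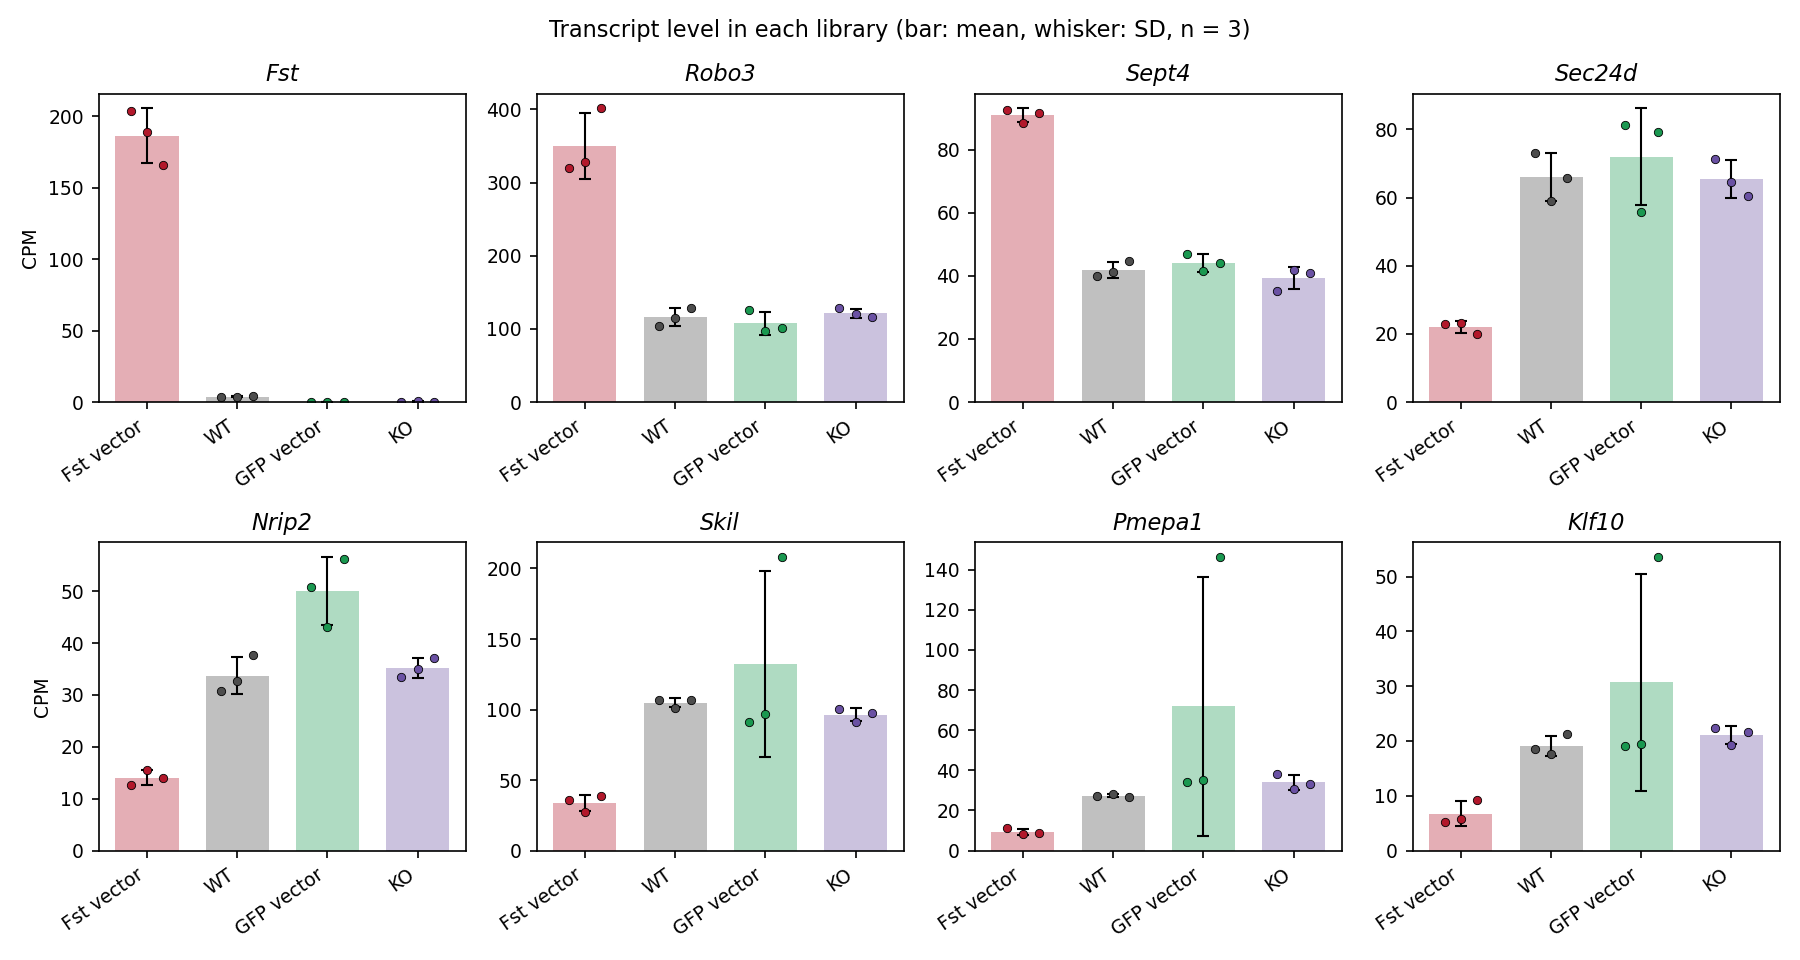
CPM of 8 genes in every library, by group (Fst vector, WT, GFP vector, KO); points are libraries, bars the mean and whiskers the SD (n = 3). Robo3 and Sept4 are higher, and Sec24d, Nrip2, Skil, Pmepa1 and Klf10 lower, in the 3 Fst vector libraries than in the 3 WT libraries, with no overlap; Skil, Pmepa1 and Klf10 are highest in GFP vector F.

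Over the transcriptome, 1995 of 15047 tested genes (13.3%) passed an adjusted p of 0.05, 947 higher (6.29%) and 1048 lower (6.96%) with the Fst vector. Of these, 428 changed by more than 2-fold, 175 higher and 253 lower. Counts of called list members below are to be read beside the 6.29 and 6.96%. A count near those shares is no result about its list. The Fst vector and WT libraries did not overlap for 1993 of the called genes. The share without overlap over all tested genes is not given, so this count adds nothing to the calls. Where groups are said below not to overlap for a called gene, that likewise describes the values and adds no support. Protein-coding genes supplied 912 of the higher and 946 of the lower calls. In bulk tissue, fewer cells of a type and less RNA per cell cannot be told apart. Scaled by total counts, without TMM, the data gave 1309 higher and 874 lower genes. The count fell to 537, 525 and 493 when WT M1, F1 or M2 was left out. It was 2518, 1925 and 2657 without Fst vector M1, M2 or F, the group whose libraries spread more. Unless a loss is stated, a gene given with its values below kept its call in Fst vector against WT in each fit without 1 library, while members only named did not all do so.

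GFP vector against KO gave 279 called genes of 14927 (1.87%), 129 higher and 150 lower. With the replicate as a block, 33 genes were called, 27 of them among the 279. The count of 279 also depended on single libraries. Without any 1 of KO M1, KO F1, KO M2 or GFP vector M2, 2 genes were called, 955 without GFP vector F and 1937 without GFP vector M1. Without the block both comparisons called 180 genes, and 178 of these changed in the same direction, 8.92% of the first list and 63.8% of the second. With the block the shared genes were 21, all in the same direction. Of the 1968 genes called with the Fst vector and tested in the other comparison, 1758 had the same sign there. Genes called in both include Tma7, Shank3, Shank1 and Rpl35, described below. Of 41 genes followed through the alternatives and called in GFP vector against KO, 6 kept that call with the block and 1, Shank3, in every fit without 1 library.

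Transcript length moved with the change in both comparisons. The median log2 fold change of Fst vector over WT was 0.23 in the shortest of 5 equal bins of transcript length and then 0.13, 0.029, -0.045 and -0.21 in the longer bins. In GFP vector over KO the medians were 0.14, 0.083, 0.029, -0.031 and -0.14. Genes called higher with the Fst vector had a median transcript length of 2234 bases and those called lower 5261 bases, against 3361 bases for all tested genes. The share called higher was 12.6% in the shortest bin and 1.46% in the longest, and the share called lower 2.39 and 17.4%. Median GC content was 54.4% for higher, 48.7% for lower and 49.5% for all tested genes. With length and GC fitted as an offset, an alternative chosen after seeing the data, 1962 genes were called, 979 higher and 983 lower, and 1379 of them were among the 1995. Counts with this offset are given below for some groups of genes. They also differ for other groups, where they are not given.

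**Figure D2:**
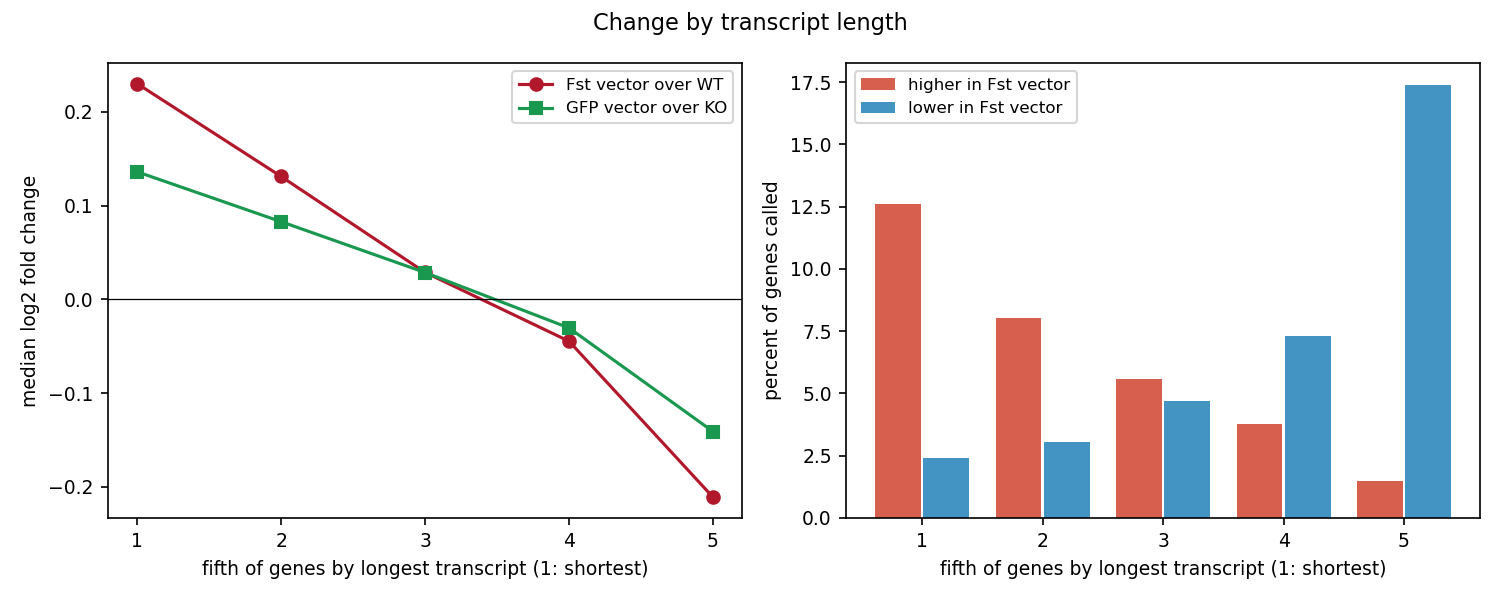
Genes split into 5 equal bins of transcript length, shortest to longest. The median log2 fold change falls with length both in Fst vector over WT and in GFP vector over KO, and the share of genes called higher with the Fst vector falls from 12.6 to 1.46% while the share called lower rises from 2.39 to 17.4%.

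Members of the activin and TGF-beta pathway were next read in the order ligand, inhibitor, receptor, SMAD. Of 5 tested activin and GDF ligand genes, 2 were higher with the Fst vector, beside 6.29% of all genes. Inha, the inhibin alpha subunit that competes with activin assembly, stood at 82.5, 78.2 and 71.8 CPM against 51.7, 60.3 and 56.4 CPM in WT (log2 0.42 ± 0.11, edgeR adjusted p = 0.0272). Inhbb, the beta B subunit, had 7.07, 6.28 and 4.10 CPM with the vector and 2.73, 3.22 and 2.91 CPM in WT (log2 0.94 ± 0.26, edgeR adjusted p = 0.04). Both lost their call in at least 1 fit without a library, with adjusted p up to 0.143, and Inha also with the length and GC offset. Inhba, the beta A subunit of activin A, had 6.97, 10.6 and 36.9 CPM against 12.7, 9.76 and 11.6 CPM in WT and was not called (log2 0.61 ± 0.64, edgeR adjusted p = 0.556). Its high value came from Fst vector F, and GFP vector F at 90.2 CPM was likewise the highest of its group, against 11.8 to 13.5 CPM in KO.

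Among ligands and binding proteins of TGF-beta, 2 of 6 tested genes were higher, beside 6.29% of all genes. Ltbp3, which holds latent TGF-beta in the matrix, had 73.7, 90.1 and 98.2 CPM with the Fst vector and 28.0, 27.9 and 25.8 CPM in WT (log2 1.64 ± 0.12, edgeR adjusted p = 0.000113). It overlaps another gene, and without strand information the reads of both genes cannot be told apart. GFP vector M2 and F also had 77.8 and 82.3 CPM of Ltbp3, while GFP vector M1 had 28.1 CPM, close to the 20.4 to 31.2 CPM of KO. Tgfb3, a TGF-beta isoform, was called at log2 0.80 ± 0.20 (edgeR adjusted p = 0.025) and lost the call without any 1 WT library, with adjusted p up to 0.104. Of 14 BMP ligands and antagonists 1 passed, beside 13.3% of all genes. This was Bmp1, a protease that processes procollagen and frees some latent ligands. It had 355, 352 and 409.6 CPM with the vector and 225, 221 and 257 CPM in WT (log2 0.62 ± 0.10, edgeR adjusted p = 0.0045).

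In the follistatin family, Fst apart, 1 of the other 8 tested genes passed, beside 13.3% of all genes. This was Fstl4, a follistatin-like gene, with 11.9, 17.4 and 19.9 CPM against 27.8, 29.1 and 26.7 CPM in WT (log2 -0.81 ± 0.17, edgeR adjusted p = 0.0143). Its adjusted p was up to 0.0765 when a WT library was left out. Fstl1, which binds BMPs, stood at 21.1 to 22.0 CPM with the vector and 23.2 to 25.9 CPM in WT, and was not called (edgeR adjusted p = 0.258). Fstl3, the closest relative of Fst and also an activin binder, was too low to be tested, with 0.884 to 1.22 CPM against 0.618 to 1.47 CPM.

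Receptor genes that passed were all lower, 4 of 14 tested. Over all genes 6.96% were called lower, and in length bins 4 and 5 7.32 and 17.4%. Acvr2a, a type II activin receptor, had 51.1, 73.8 and 59.3 CPM against 98.6, 103 and 93.8 CPM in WT (log2 -0.73 ± 0.13, edgeR adjusted p = 0.00647). Acvr1b, the type I activin receptor, had 128, 132 and 137 CPM against 184, 167 and 186 CPM (log2 -0.49 ± 0.09, edgeR adjusted p = 0.00843). Bmpr2 and Tgfbr1, receptors for BMPs and TGF-beta, were lower by log2 -0.63 ± 0.11 and -0.77 ± 0.16 (edgeR adjusted p = 0.00593 and 0.0143). In all 4 genes every Fst vector library lay below every WT library. Acvr2a was also lower in GFP vector over KO (log2 -0.66 ± 0.12, edgeR adjusted p = 0.0434, and 0.0659 with the replicate block). Receptor transcripts are long, with a median of 5517.5 bases over the 14, and with the length and GC offset Acvr2a and Acvr1b passed, while Bmpr2 stood at log2 -0.13 (adjusted p = 0.402) and Tgfbr1 at -0.52 (adjusted p = 0.103). Acvr1b and Tgfbr1 lost the call when some WT libraries were left out, with adjusted p up to 0.0842.

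SMAD proteins and genes known to respond to them gave 2 higher and 7 lower of 24 tested, beside 6.29 and 6.96% of all genes. The list's median was -0.00356, against 0.016 for all genes tested, so the calls did not come with a shift of the whole list. Feedback inhibitors and early targets of activin and TGF-beta stood among the lower genes. Skil, the SMAD corepressor SnoN, had 35.8, 27.5 and 38.4 CPM with the Fst vector, against 107, 101 and 107 CPM in WT. That is 3.09-fold lower than WT (log2 -1.67 ± 0.13, edgeR adjusted p = 0.000116), with no overlap of the groups. Pmepa1, a membrane protein that takes up receptor-regulated SMADs, had 11.2, 8.51 and 8.75 CPM against 27.3, 28.4 and 26.6 CPM in WT (log2 -1.57 ± 0.15, edgeR adjusted p = 0.000266). Klf10, the TGF-beta-inducible early gene, had 5.20, 5.67 and 9.30 CPM against 18.6, 17.7 and 21.2 CPM (log2 -1.56 ± 0.21, edgeR adjusted p = 0.00168). Smad7, the inhibitory SMAD, had 11.6, 8.0 and 8.97 CPM against 19.5, 16.6 and 19.9 CPM (log2 -1.01 ± 0.17, edgeR adjusted p = 0.00529). The groups were apart for all of these genes, while Klf10 ran from 5.20 to 9.30 CPM within the Fst vector group.

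The remaining lower members were Bhlhe40, a clock and TGF-beta-responsive repressor, Ski, the corepressor related to SnoN, and Smurf2, a ubiquitin ligase for receptors and SMADs. Their log2 fold changes were -0.63 ± 0.14, -0.39 ± 0.09 and -0.39 ± 0.12, with edgeR adjusted p of 0.0186, 0.0174 and 0.049. These calls were less stable, with adjusted p up to 0.206 when a library was left out, 0.147 for Smurf2 with the length and GC offset and 0.08 for Bhlhe40 in the fit of all 12 libraries. The 2 higher members were inhibitors of DNA binding, which are textbook targets of BMP signalling. Id3 had 66.4, 48.4 and 45.8 CPM against 27.2, 26.0 and 25.3 CPM in WT (log2 0.99 ± 0.15, edgeR adjusted p = 0.00295). Id4 had 158, 153 and 130.0 CPM against 95.0, 88.3 and 103 CPM (log2 0.58 ± 0.11, edgeR adjusted p = 0.00856), and its call was lost without WT M1 or WT F1 (adjusted p = 0.0562 and 0.0677).

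In GFP vector over KO none of the 24 SMAD genes passed edgeR's test, and the list's median was 0.261. Skil there had 91.4, 96.6 and 208 CPM with the GFP vector and 100.4, 91.3 and 97.6 CPM in KO. Pmepa1 had 34.4, 35 and 146 CPM against 38.1, 30.7 and 33.4 CPM, and Klf10 19.1, 19.4 and 53.6 CPM against 22.4, 19.3 and 21.6 CPM. GFP vector F was the highest library of the series for all 3 genes, as it was for Inhba. In the direct test of the 2 effects against each other, described below, Skil differed by log2 -2.11 ± 0.39 (edgeR adjusted p = 0.0907), Pmepa1 by -2.64 ± 0.76 (adjusted p = 0.349) and Klf10 by -2.09 ± 0.54 (adjusted p = 0.248). None of these passed, so the lower levels are not shown to be particular to the Fst vector group. In a fit of all 12 libraries the call of Pmepa1 for Fst vector against WT was lost (adjusted p = 0.0968).

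**Figure D3:**
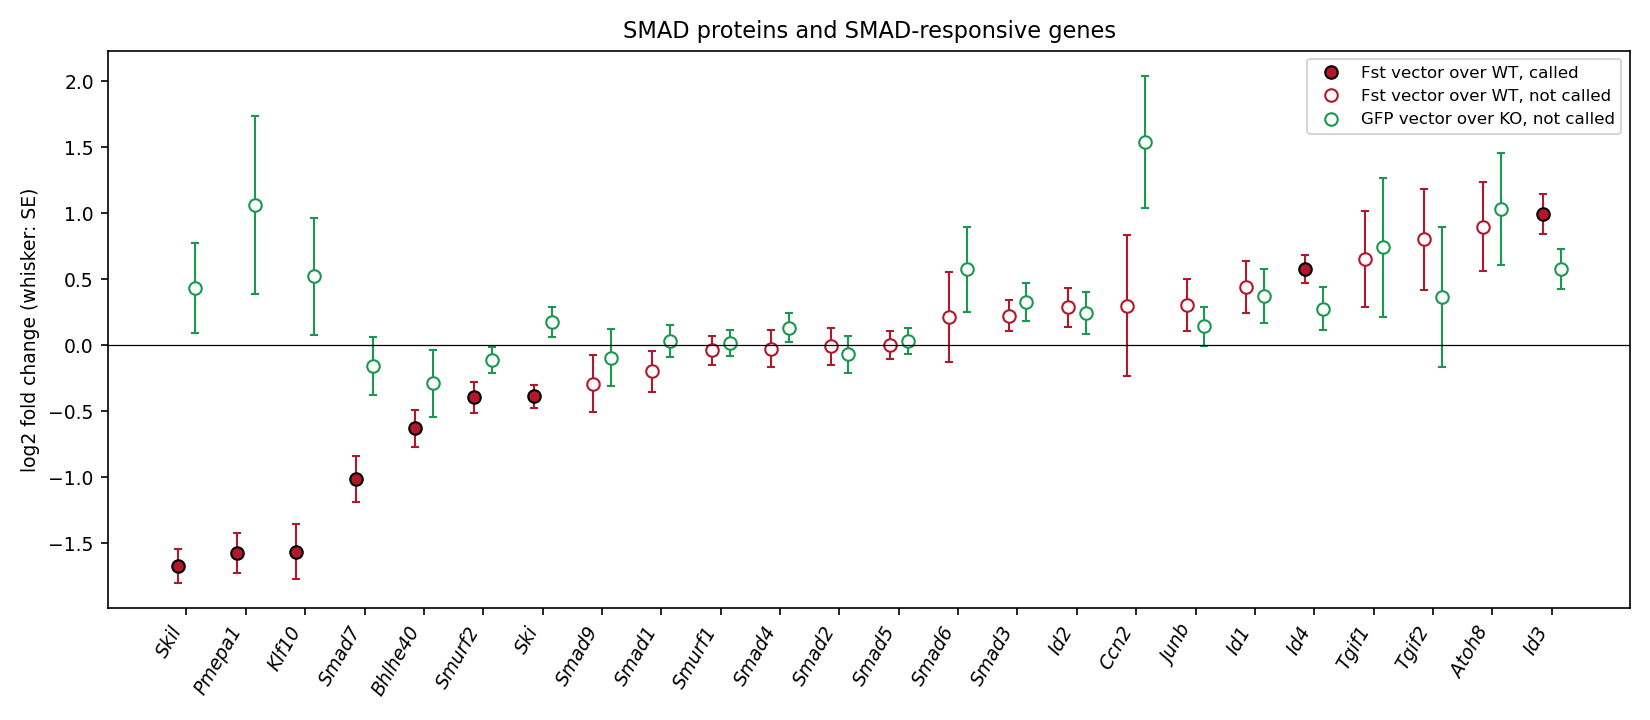
Log2 fold change with its SE for the 24 tested SMAD proteins and SMAD-responsive genes, in Fst vector over WT and in GFP vector over KO. Filled points mark an adjusted p under 0.05; Skil, Pmepa1, Klf10 and Smad7 lie lowest in Fst vector over WT, Id3 highest among called genes, and no gene is called in GFP vector over KO.

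To set the Fst vector effect apart from what both vector groups share, the contrast of Fst vector minus WT less GFP vector minus KO was tested in 1 fit of all 12 libraries. A table or vector effect of equal size in both pairs drops out of this contrast. It also contains the effect of the knockout, since the pairs differ in Fst genotype. Of 15632 tested genes, 17 passed (0.109%), 5 higher (0.032%) and 12 lower (0.0768%), and 1348 had an unadjusted p under 0.05. This fit held no replicate block, and with the block 37 genes passed, these 17 among them. All 17 were among the genes called in Fst vector against WT. Apart from Hs6st1 and Spsb1, which rose in GFP vector over KO, none was called in that comparison, and both lost that call with the replicate block (adjusted p = 0.0764 and 0.0618). Leaving out any 1 WT or KO library gave 4 to 8 genes, leaving out Fst vector M2 gave 10, and leaving out any other vector library gave 29 to 58.

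Fst itself, the gene carried by the vector, had the largest difference, log2 8.18 ± 0.84 (edgeR adjusted p = 0.000445). Part of this value rests on Fst counts near the floor, 0, 1 and 0 with the GFP vector and 2, 4 and 2 in KO. Fst, Robo3, Sec24d and Nrip2 passed in all 23 alternative fits of this contrast that were run. Robo3 is a roundabout family receptor for axon guidance, known for the crossing of the midline by commissural axons. It had 319.7, 328 and 402 CPM with the Fst vector and 104, 115 and 129 CPM in WT, and the lowest vector library was well above the highest WT library. This was a 3.02-fold rise (log2 1.55 ± 0.12, edgeR adjusted p = 0.000121). Robo3 stood at 126, 96.5 and 101 CPM with the GFP vector, against 128, 119.9 and 116 CPM in KO. The difference of the effects was log2 1.74 ± 0.17 (edgeR adjusted p = 0.000445).

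Sec24d, a cargo-binding subunit of the COPII coat that carries proteins out of the endoplasmic reticulum, was lower. Its levels were 22.9, 23.3 and 20.04 CPM with the Fst vector and 73.1, 59.1 and 65.8 CPM in WT, 2.99-fold lower (log2 -1.62 ± 0.12, edgeR adjusted p = 0.000113). GFP vector libraries had 81.2, 55.7 and 79.3 CPM and KO 71.3, 64.5 and 60.5 CPM, and the difference of the effects was log2 -1.74 ± 0.20 (adjusted p = 0.00126). Nrip2, a nuclear receptor-interacting protein, had 12.6, 15.6 and 14.1 CPM with the Fst vector and 30.8, 32.6 and 37.7 CPM in WT (log2 -1.30 ± 0.13, edgeR adjusted p = 0.00048). With the GFP vector it had 50.7, 43.1 and 56.3 CPM, against 33.4, 35 and 37.2 CPM in KO, the other direction without passing the test (adjusted p = 0.0734). The difference was log2 -1.79 ± 0.18 (adjusted p = 0.000445). Nrip2 overlaps Itfg2, whose reads cannot be told apart without strand.

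Promoter windows were sought for the genes of smallest p in this contrast and for called SMAD-related genes. Only genes with a single window were used, so Fst, Nrip2, Skil, Pmepa1, Klf10 and Bhlhe40 are absent, and Smad7 was not searched. Windows are shown for Robo3 and Sec24d of the first group and for Id3 and Smurf2 of the second. They come from RefSeq on GRCm38.p6 and run from 250 bases before to 50 after the start site, 5′ to 3′ on the gene's strand. Capitals mark matches to CAGACA, to the palindromic SMAD-binding element GTCTAGAC or to the GC-rich GGCGCC, each searched on both strands. Of 32851 such windows in the table, 21.04% hold CAGACA, 0.2131% GTCTAGAC and 11.87% GGCGCC.
Robo3 (chr9:37433126-37433425, minus strand): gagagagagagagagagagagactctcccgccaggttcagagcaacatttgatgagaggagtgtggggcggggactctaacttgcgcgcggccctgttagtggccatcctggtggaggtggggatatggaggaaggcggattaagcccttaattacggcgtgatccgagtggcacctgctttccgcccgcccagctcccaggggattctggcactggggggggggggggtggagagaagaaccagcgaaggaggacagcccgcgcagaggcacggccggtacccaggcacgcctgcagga
Sec24d (chr3:123267246-123267545, plus strand): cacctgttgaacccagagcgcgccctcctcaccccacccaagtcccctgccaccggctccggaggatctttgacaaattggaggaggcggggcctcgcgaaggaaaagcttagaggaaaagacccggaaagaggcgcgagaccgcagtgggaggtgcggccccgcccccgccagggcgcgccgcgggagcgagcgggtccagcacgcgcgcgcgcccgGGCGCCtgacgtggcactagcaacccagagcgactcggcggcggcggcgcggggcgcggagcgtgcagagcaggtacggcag
Id3 (chr4:136143572-136143871, plus strand): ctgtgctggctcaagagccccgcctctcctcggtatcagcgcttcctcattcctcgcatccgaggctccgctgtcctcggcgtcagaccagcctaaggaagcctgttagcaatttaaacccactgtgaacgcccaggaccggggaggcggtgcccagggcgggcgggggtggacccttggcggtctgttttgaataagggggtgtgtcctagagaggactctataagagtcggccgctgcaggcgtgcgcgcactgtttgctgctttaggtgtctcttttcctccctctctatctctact
Smurf2 (chr11:106920666-106920965, minus strand): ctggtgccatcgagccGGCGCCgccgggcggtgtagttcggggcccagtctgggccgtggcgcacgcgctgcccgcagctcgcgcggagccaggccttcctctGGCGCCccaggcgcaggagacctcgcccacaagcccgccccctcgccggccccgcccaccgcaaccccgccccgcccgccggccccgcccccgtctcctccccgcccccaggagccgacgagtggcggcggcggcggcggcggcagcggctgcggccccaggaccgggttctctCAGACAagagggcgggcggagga
The Robo3 and Id3 windows hold none of these letter strings. Sec24d has 1 match to GGCGCC, and Smurf2 has 1 to CAGACA and 2 to GGCGCC. The windows of Ski and Id4, not printed, hold 1 match to GGCGCC each. A match describes the letters only and says nothing of binding.

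The other 13 genes of this contrast passed in fewer of the alternatives. Sept4, a septin of the cytoskeleton, had 92.6, 88.4 and 91.7 CPM with the Fst vector and 40.0, 41.1 and 44.7 CPM in WT (log2 1.07 ± 0.10, edgeR adjusted p = 0.00024). Its difference from GFP vector over KO was log2 0.92 ± 0.14 (adjusted p = 0.0125). Trmt9b, a homologue of a tRNA methyltransferase, had 13.8, 21.5 and 22.3 CPM against 7.77, 6.44 and 5.38 CPM in WT, with a difference of log2 2.03 ± 0.34 (adjusted p = 0.0378). Wnk4, a kinase that regulates ion cotransporters, had 44.7, 33.2 and 45.8 CPM against 23.1, 24.9 and 24.3 CPM in WT, with a difference of log2 1.05 ± 0.19 (adjusted p = 0.0463). For all 3 genes every Fst vector library lay above every WT library. The call of Wnk4 against WT was lost without WT M1, F1 or M2 (adjusted p = 0.0634, 0.0503 and 0.0628).

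Enzymes that sulfate glycosaminoglycans were among the lower genes. Chst15, which sulfates chondroitin chains, had 53.7, 41.0 and 47.6 CPM with the Fst vector, against 87.7, 91.6 and 90.0 CPM in WT (difference log2 -1.04 ± 0.15, edgeR adjusted p = 0.0119); it overlaps Fgfr2. Hs6st1, which sulfates heparan chains, had 25.8, 31.2 and 35.2 CPM against 50.9, 40.9 and 51.5 CPM in WT, while it rose in GFP vector over KO (log2 0.51 ± 0.09, adjusted p = 0.0375). Its difference was log2 -1.20 ± 0.17 (adjusted p = 0.00982), and its call in Fst vector against WT was lost without WT M1 or WT M2 (adjusted p = 0.0718 and 0.0796). Cnih3, an auxiliary subunit that keeps AMPA receptors at the synapse, had 55.3, 29.9 and 29.4 CPM against 108 CPM in each WT library (difference log2 -1.94 ± 0.31, adjusted p = 0.0463). GFP vector libraries had 139, 115 and 158 CPM of Cnih3, against 118, 90.6 and 98.8 CPM in KO.

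The 7 others were all lower with the Fst vector, with no overlap with WT. They included Ripor2, which binds the small GTPase RhoA, Abcb10, a mitochondrial inner membrane transporter, Vps37b, an endosomal sorting subunit, Syt13, a synaptotagmin, Spsb1, a substrate adaptor of ubiquitin ligases, and Slc25a42, a mitochondrial carrier of coenzyme A. Their differences ran from log2 -1.83 for Abcb10 (edgeR adjusted p = 0.0119) to -0.89 for Syt13 (adjusted p = 0.0463). Abcb10 had 15, 11.2 and 15.7 CPM with the Fst vector and 31.9, 37.6 and 31.9 CPM in WT. Ripor2 had 36.3, 37.7 and 31.9 CPM against 75.7, 78.7 and 70.6 CPM and overlaps a clone-named gene. Spsb1 rose in GFP vector over KO (log2 0.60 ± 0.11, adjusted p = 0.043), and its call against WT was lost without any 1 WT library (adjusted p up to 0.143).

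**Figure D4:**
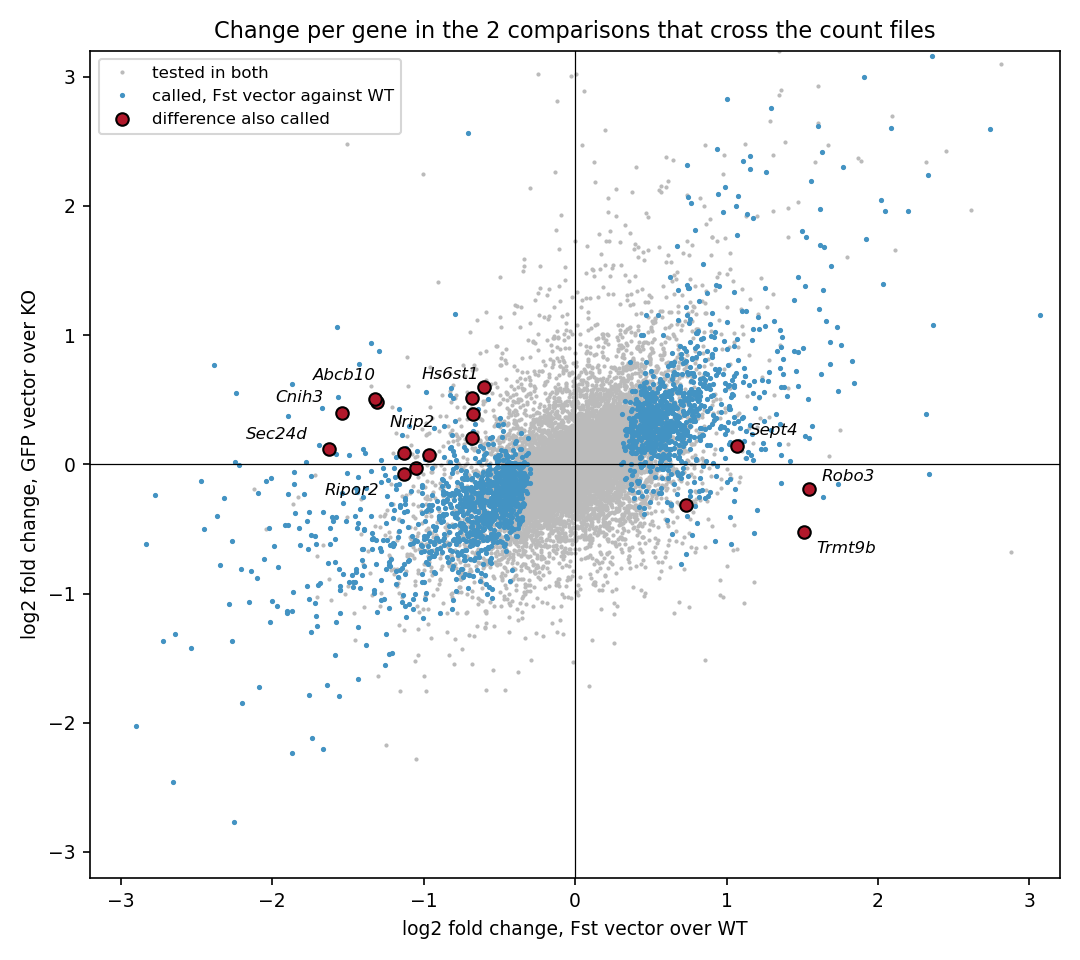
Log2 fold change of 14695 genes in Fst vector over WT (horizontal axis) and in GFP vector over KO (vertical axis), 11 of them outside the axes. Large outlined points, some of them labelled, are the 16 genes other than Fst whose effects differed between the comparisons; Fst was not tested in GFP vector against KO.

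Among genes ranked by p in Fst vector against WT, the named higher genes came from several roles. Vgf, a precursor of secreted neuropeptides, had 337, 359 and 403 CPM with the Fst vector and 166, 134 and 128 CPM in WT (log2 1.31 ± 0.12, edgeR adjusted p = 0.000266). Acan, the proteoglycan aggrecan of perineuronal nets, had 14.9, 20.4 and 19.6 CPM against 6.09, 5.04 and 5.38 CPM (log2 1.68 ± 0.17, adjusted p = 0.00048). Pik3r1, a regulatory subunit of phosphoinositide kinase, had 168, 177 and 192 CPM against 79.0, 85.1 and 88.1 CPM (log2 1.04 ± 0.10, adjusted p = 0.000266). In these 3 genes the groups were far apart, and GFP vector M2 and F also lay above every KO library.

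Kcnh4, a voltage-gated potassium channel, rose by log2 1.13 ± 0.12 and Cpne5, a calcium-dependent membrane-binding copine, by 1.29 ± 0.14 (edgeR adjusted p = 0.000535 and 0.000569). Bcas1, a marker of oligodendrocytes at the start of myelination, rose by 1.02 ± 0.11 (adjusted p = 0.000569) and Hsf4, a heat shock transcription factor, by 1.52 ± 0.17 (adjusted p = 0.000786). Klhdc8b, a kelch-repeat protein (log2 1.45 ± 0.10, adjusted p = 0.000113), overlaps Ccdc71, and Plppr3, a phospholipid phosphatase-related neuronal membrane protein (1.15 ± 0.09, adjusted p = 0.00016), overlaps Prtn3 and Ptbp1. Tma7, a translation-associated protein that overlaps Ccdc51, rose by 0.82 ± 0.09 (adjusted p = 0.00063) and by 0.86 ± 0.09 in GFP vector over KO (adjusted p = 0.0165). Tmsb10, an actin-binding thymosin, rose by 1.69 ± 0.19 (adjusted p = 0.000638) and lost its call in the fit of all 12 libraries (adjusted p = 0.0702).

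The 15 lower genes named by rank of p had varied roles. Camk2a, the alpha subunit of calcium/calmodulin-dependent kinase II, had 2613, 2747 and 2702 CPM with the Fst vector and 5548, 5833 and 5689 CPM in WT (log2 -1.13 ± 0.08, edgeR adjusted p = 0.000113). Adcy1, a calcium-stimulated adenylyl cyclase, had 1139, 1308 and 1166 CPM against 2539, 2680.2 and 2718 CPM (log2 -1.18 ± 0.09, adjusted p = 0.000147). Nr3c2, the mineralocorticoid receptor, had 88.1, 89.2 and 87.6 CPM against 181, 163 and 173 CPM (log2 -1.01 ± 0.09, adjusted p = 0.00024). Replicates of these genes lay within a narrow range in both groups. GFP vector libraries had 4462, 3398 and 2911 CPM of Camk2a, against 6109, 6449.5 and 5557 CPM in KO (adjusted p = 0.0506).

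Both chains of the interleukin 1 receptor were lower. Il1r1, the ligand-binding chain, had 11.9, 7.39 and 5.65 CPM with the Fst vector and 57.3, 55.7 and 60.4 CPM in WT, 6.96-fold lower (log2 -2.83 ± 0.22, edgeR adjusted p = 0.000116). Il1rap, the accessory chain, had 71.6, 80.7 and 71.1 CPM against 162, 151 and 164 CPM (log2 -1.14 ± 0.09, adjusted p = 0.00016). For Il1r1, GFP vector libraries had 57.4, 27.8 and 28.8 CPM and KO 59.5, 56.6 and 55.3 CPM, and the difference of the effects did not pass (log2 -2.22 ± 0.41, adjusted p = 0.0859). Granule cells are known as the main site of Il1r1 transcripts in the mouse hippocampus.

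Slc26a10, of the anion exchanger family, was 6.42-fold lower, with 16.7, 13.0 and 9.63 CPM with the Fst vector and 78.6, 79.9 and 93.8 CPM in WT (log2 -2.72 ± 0.18, edgeR adjusted p = 8.26e-05). It overlaps B4galnt1. Ahcyl2, related to a regulator of inositol trisphosphate receptors, had 205, 195 and 166 CPM against 569, 537 and 581 CPM (log2 -1.62 ± 0.11, adjusted p = 8.26e-05). Chromatin and RNA factors in the set were Chd3, a nucleosome remodeller (log2 -1.34 ± 0.12), Foxk1, a forkhead repressor (-1.20 ± 0.10), and Dhx33, an RNA helicase (-1.12 ± 0.10), with edgeR adjusted p of 0.000227, 0.00016 and 0.000189. Rhbdl3, a rhomboid-like membrane protein, and Parm1, a mucin-like membrane protein, were lower by log2 -1.86 ± 0.16 and -1.44 ± 0.13 (adjusted p = 0.000227 and 0.00026). All 15 named lower genes kept their call in every alternative fit that was run.

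Mature granule cell genes were mostly lower. Of 20 tested, 12 were lower and 4 higher, beside 6.96% lower and 6.29% higher over all genes. The list's median log2 was -0.70 against 0.016 for all genes. Their summed level was 3073 to 3455 CPM with the Fst vector and 4175 to 4455 CPM in WT. Dsp, desmoplakin, a strong marker of granule cells, had 75.0, 56.2 and 34.2 CPM against 253, 253 and 266 CPM in WT (log2 -2.26 ± 0.24, edgeR adjusted p = 0.00103). Neurod2, a neuronal differentiation factor, had 189, 109 and 96.6 CPM against 363, 347 and 369.5 CPM (log2 -1.49 ± 0.23, adjusted p = 0.00519). Npnt, the matrix protein nephronectin, had 47.9, 39.0 and 58.3 CPM against 109, 124 and 125 CPM (log2 -1.35 ± 0.14, adjusted p = 0.000523). Each of these markers was lower in all 3 vector libraries than in any WT library. Fst vector F was the lowest for Dsp and Neurod2.

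Prox1, the transcription factor that defines granule cell identity, had 226, 294 and 328 CPM against 422, 445 and 454 CPM in WT (log2 -0.69 ± 0.13, edgeR adjusted p = 0.00816). Its call was lost without WT F1 or WT M2 (adjusted p = 0.0521 and 0.0584). Rfx3, Pcsk5 and Maml2, expressed by granule cells and also by other cells, were lower by log2 -0.96 ± 0.11, -0.82 ± 0.12 and -0.68 ± 0.10. Calb1, the calcium buffer calbindin of mature granule cells, had 212, 201 and 93.9 CPM against 232, 241 and 243 CPM and did not pass (adjusted p = 0.22). Other granule cell genes were higher: Trpc6, a cation channel, had 161, 178 and 176 CPM against 86.2, 117 and 96.7 CPM (log2 0.73 ± 0.12, adjusted p = 0.0045, and 0.0639 in the fit of all 12 libraries). C1ql2, a secreted synaptic organiser of mossy fibres, had 813, 572 and 678 CPM against 463, 453 and 459 CPM (log2 0.54 ± 0.13, adjusted p = 0.0223), and its call was lost without any 1 WT library (adjusted p up to 0.108) and with the length and GC offset (0.104). Called markers thus lay in both directions. Of the higher ones, C1ql2, Plk5 and Ntng1 lost the call in some fits without 1 library, and Trpc6 kept it. Whether the number of granule cells differed was not tested.

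In GFP vector over KO 1 granule cell gene was called lower, Rfx3 (edgeR adjusted p = 0.0456, and 0.0741 with the replicate block), and the list's median was -0.27. Dsp there had 288, 102 and 98.3 CPM with the GFP vector and 261, 220.5 and 243 CPM in KO, so GFP vector M2 and F were low as well. No granule cell gene was called in the difference of the effects. With the length and GC offset 10 were lower and 4 higher, and over the fits without 1 library 7 to 13 were lower. The transcripts of the list are long, with a median of 5103 bases. In length bins 4 and 5 of all genes, 7.32 and 17.4% were called lower with the Fst vector.

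Newborn neuron genes gave 3 higher and 4 lower of 18, beside 6.29% higher and 6.96% lower over all genes. Stmn1, a microtubule-destabilising protein of growing neurons, had 269.7, 204 and 165 CPM with the Fst vector and 103, 95.8 and 101 CPM in WT (log2 1.05 ± 0.16, edgeR adjusted p = 0.00303). Igfbpl1, a marker of intermediate progenitors and early neurons, had 0.884, 0.709 and 1.11 CPM against 3.57, 3.11 and 4.50 CPM (log2 -2.09 ± 0.32), and passed the filter on low counts through the WT libraries. Dcx, doublecortin, the usual marker of immature neurons, had 16.2, 26.1 and 35.1 CPM against 23.7, 23.9 and 20.7 CPM and did not pass (adjusted p = 0.731). Stem cell and proliferation genes gave 2 higher and 1 lower of 18, namely Sox2 and Hopx higher and Top2a lower, and all 3 calls were lost in some fits without a library (adjusted p up to 0.18). Sox2 and Hopx also mark astrocytes.

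Lists for neighbouring regions and other neurons held calls in both directions, beside 6.29% higher and 6.96% lower over all genes, with medians between log2 -0.235 for Cajal-Retzius and 0.227 for mossy cell genes. Among CA pyramidal genes 2 of 17 were higher and 3 lower. Fibcd1, a marker of CA1 dorsal pyramidal cells, had 7.36, 2.94 and 2.77 CPM with the Fst vector and 22.1, 22.3 and 19.7 CPM in WT (log2 -2.32 ± 0.31, edgeR adjusted p = 0.00172). Necab2, a calcium-binding protein of CA2 and other neurons, had 153, 132 and 207 CPM against 70.0, 54.1 and 57.0 CPM (log2 1.40 ± 0.16, adjusted p = 0.000837). Interneuron genes gave 3 higher of 18 (Slc32a1, Pvalb and Npy) and none lower, and neocortex and striatum genes 3 lower of 13 (Rasgrf2, Rgs9 and Pde10a). Of 9 thalamus and habenula genes 2 were higher (Calb2 and Ramp3), and of 7 Cajal-Retzius genes 1 was lower (Reln). Npy, Rasgrf2 and Rgs9 kept the call in every fit without 1 library, and the other 6 named in these lists lost it in some (adjusted p up to 0.155). None of 9 mossy cell genes passed edgeR's test. The choroid plexus gene Ttr stood at 0.775 to 4.12 CPM with the vector and 1.78 to 3.65 CPM in WT. How far differences in dissection contribute was not tested.

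Synaptic and channel genes that passed were mostly lower, and in each of the 6 lists below more members did not pass than passed. Over all genes 6.29% were higher and 6.96% lower. Median transcript lengths of these lists ran from 4729.5 to 7681 bases. In length bins 4 and 5 of all genes, 7.32 and 17.4% were called lower. Of 28 glutamate receptor genes 11 were lower and none higher, and of 24 postsynaptic scaffold genes likewise 11 lower and none higher. Grin2a, the NMDA receptor subunit that dominates in mature synapses, had 185, 213 and 254 CPM with the Fst vector and 397, 429 and 392 CPM in WT (log2 -0.95 ± 0.12, edgeR adjusted p = 0.00119). Gria2, the AMPA receptor subunit that sets calcium permeability, had 749.7, 1029 and 955 CPM against 1378, 1373 and 1411 CPM (log2 -0.65 ± 0.12, adjusted p = 0.00704), and its call was lost with the length and GC offset (adjusted p = 0.221). Grik3, a kainate receptor subunit, was lower by log2 -0.98 ± 0.15 (adjusted p = 0.00276). Every vector library lay below every WT library for these receptors.

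Shank3, a master scaffold of the postsynaptic density, had 125, 149.9 and 126 CPM with the Fst vector and 329.9, 293 and 302 CPM in WT (log2 -1.25 ± 0.10, edgeR adjusted p = 0.00016). Shank1, a related scaffold, was lower by log2 -1.23 ± 0.12 and Homer2, which links scaffolds to glutamate receptors, by -1.0 ± 0.13. All 3 were called lower in GFP vector over KO as well, Homer2 not with the replicate block (adjusted p = 0.0555). Shank3 there had 143, 132 and 138 CPM with the GFP vector and 344, 348 and 317 CPM in KO (log2 -1.31 ± 0.09, adjusted p = 0.00103), a change of nearly the same size. Scaffold transcripts had a median length of 5640.5 bases, and with the length and GC offset 12 were lower and 1 higher. For glutamate receptors the offset gave 8 lower and 1 higher. Leaving out 1 library at a time gave 4 to 12 lower glutamate receptor genes and 5 to 17 lower scaffold genes.

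GABA receptor genes gave 4 lower of 14 and none higher. Gabra5, a subunit of GABA-A receptors whose gene overlaps another gene, was lower by log2 -0.72 ± 0.11 (edgeR adjusted p = 0.00271). Among 28 synaptic vesicle release genes 5 were lower. Cplx2, complexin, which clamps and triggers vesicle fusion, had 1514, 1479 and 1482 CPM with the Fst vector and 2419, 2520.4 and 2537 CPM in WT (log2 -0.79 ± 0.09, adjusted p = 0.00063). Potassium channel genes gave 1 higher and 7 lower of 42, and sodium and calcium channel genes 3 higher and 9 lower of 26. Potassium channel genes with the length and GC offset gave 5 higher and 7 lower. The offset gave 3 higher and 6 lower sodium and calcium channel genes. For GABA receptor genes it gave 1 higher and 3 lower, and for vesicle release genes 6 lower. Kcnq3, a subunit of the M current, had 101, 133 and 127 CPM against 243, 274 and 231 CPM (log2 -1.10 ± 0.12, adjusted p = 0.000638). Kcnj9 and Kcnj6, subunits of G protein-gated potassium channels, moved in opposite directions, by log2 0.66 ± 0.11 and -1.44 ± 0.24 (adjusted p = 0.00459 and 0.00825). The sodium channel subunits Scn8a and Scn3b were lower, by log2 -0.76 ± 0.12 and -0.97 ± 0.09 (adjusted p = 0.00439 and 0.000271).

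Of 15 tested oligodendrocyte genes 10 were higher, none was lower and 5 did not pass, with a median log2 of 0.62. The share called higher over all genes was 6.29%. Mbp, myelin basic protein, had 826, 789 and 901 CPM with the Fst vector and 487, 478 and 517 CPM in WT (log2 0.72 ± 0.10, edgeR adjusted p = 0.00161). Mobp, another myelin protein, had 162, 156 and 190.1 CPM against 87.6, 91.6 and 104 CPM (log2 0.80 ± 0.11, adjusted p = 0.00196). Cnp, a myelin enzyme whose gene overlaps Dnajc7, had 108, 103 and 129 CPM against 66.0, 56.1 and 63.3 CPM (log2 0.83 ± 0.11, adjusted p = 0.00172). Fst vector F was highest for all 3 genes, and of the 10 these were the 3 that kept the call in every fit without 1 library. Mog, Mag, Cldn11, Mal, Olig1 and Sox10 were among the others that passed, but lost the call in at least 1 fit without a WT library (adjusted p up to 0.157). Leaving out 1 library gave 3 to 12 called members, and the offset gave 8. In GFP vector over KO 1 member was called, Cnp (adjusted p = 0.0434, and 0.0779 with the replicate block), and the median was 0.30. Of 11 oligodendrocyte precursor genes 1 passed, Tnr, which was lower.

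Cytosolic ribosomal protein genes were higher in 21 of 41, none lower, with a median log2 of 0.51. The share called higher was 6.29% over all genes and 12.6% in the shortest length bin. Rpl35 had 33.1, 25.9 and 21.8 CPM with the Fst vector and 12.6, 8.47 and 6.44 CPM in WT (log2 1.52 ± 0.24, edgeR adjusted p = 0.00358). It was also higher with the GFP vector, at 38.6, 24.0 and 20.9 CPM against 10.2, 10.3 and 11 CPM in KO (log2 1.38 ± 0.23, adjusted p = 0.0375, and 0.0605 with the replicate block). The median length of these transcripts was 1094 bases. With the length and GC offset 14 were called, and leaving out 1 library gave 3 to 34. Near-identical pseudogene copies make the counts of ribosomal protein genes uncertain. Of 43 nuclear genes of oxidative phosphorylation 2 were higher, and of 12 mitochondrially encoded genes 3 were lower. Over all genes 6.29% were higher and 6.96% lower. mt-Nd3, a complex I subunit, had 14.6, 10.6 and 16.4 CPM against 26.1, 32.9 and 34.1 CPM (log2 -1.21 ± 0.18, adjusted p = 0.00255), and was also called in GFP vector over KO (log2 -1.46 ± 0.27, adjusted p = 0.0481, and 0.0735 with the replicate block).

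**Figure D5:**
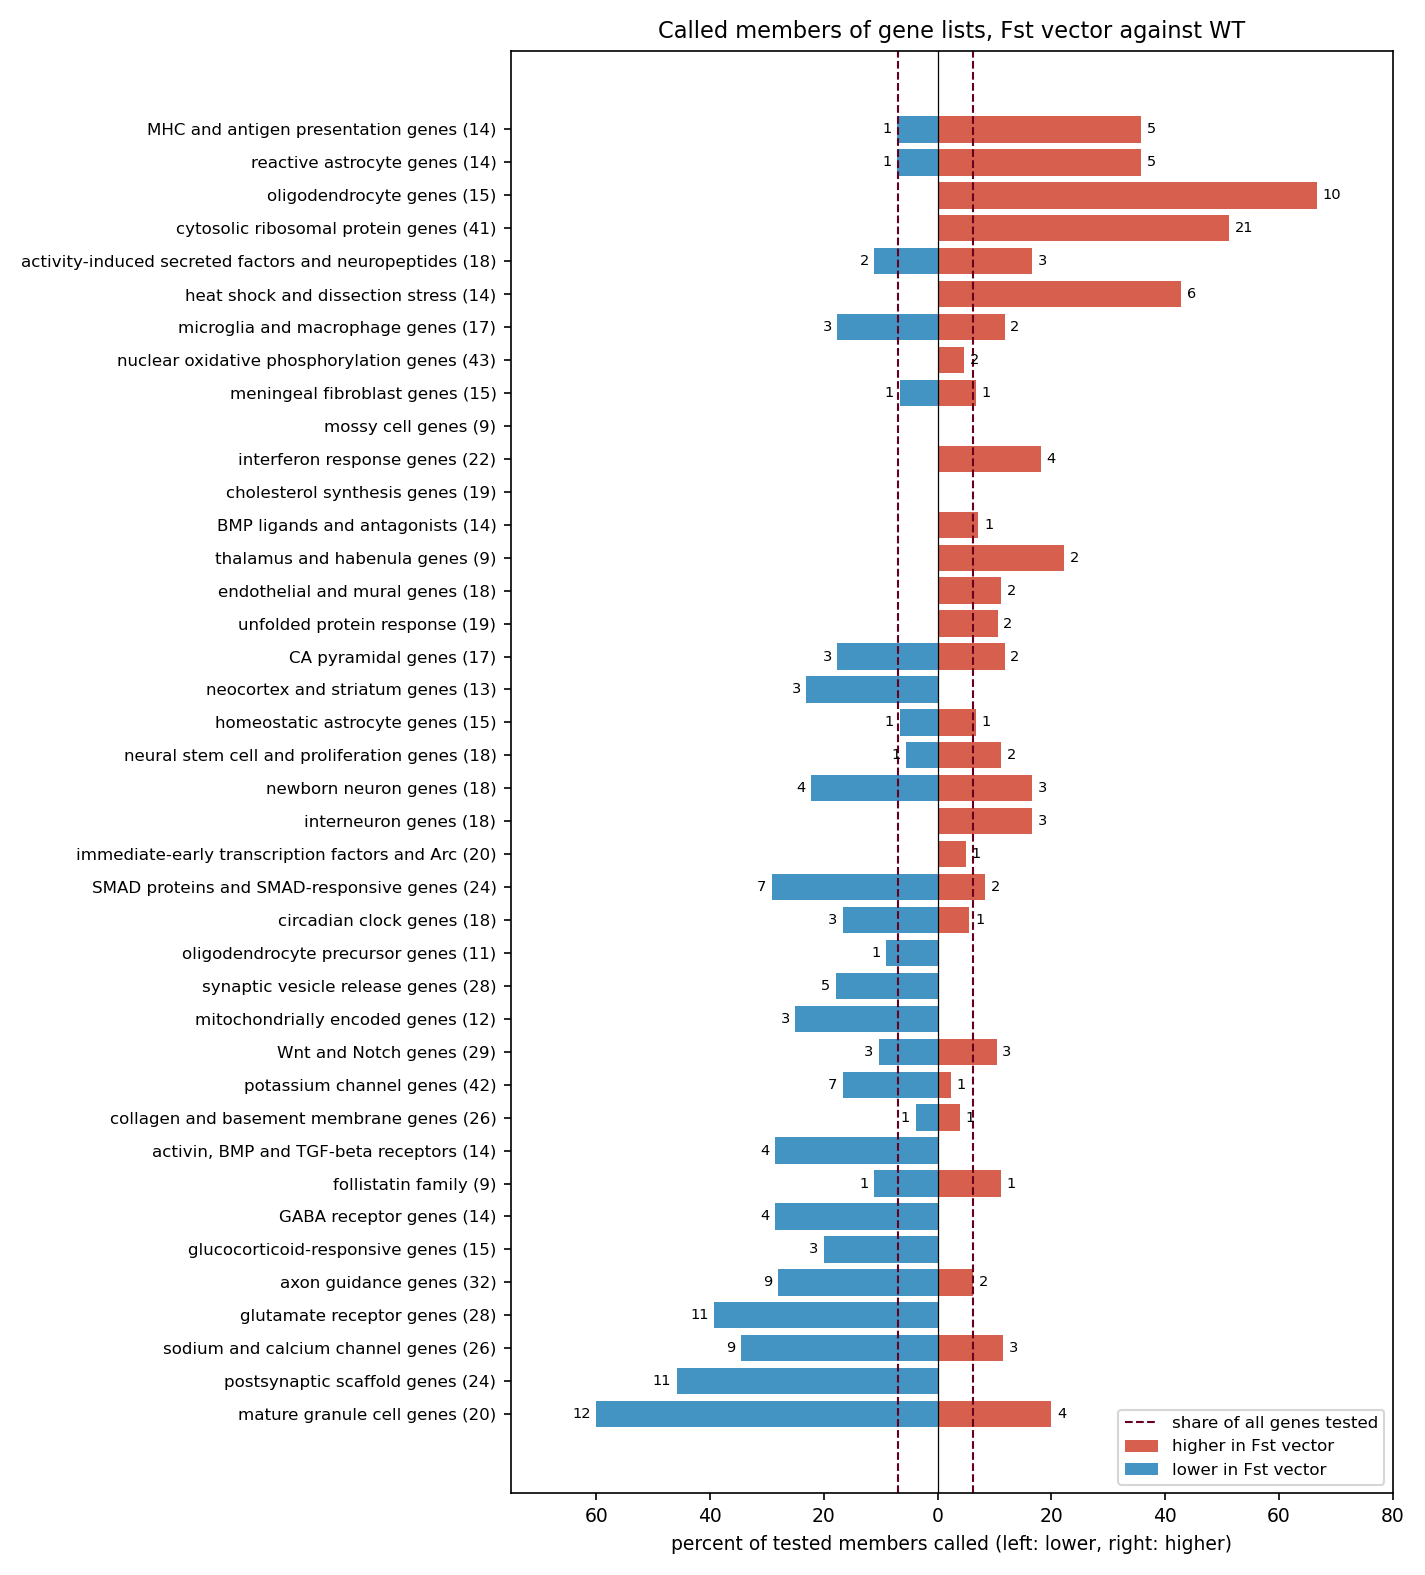
Percent of tested members called higher and called lower with the Fst vector over WT, for gene lists with at least 9 tested members. Dashed lines mark the shares over all genes, 6.29% higher and 6.96% lower; oligodendrocyte and ribosomal protein genes stand above the line for higher, and granule cell, scaffold and glutamate receptor genes above the line for lower.

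Reactive astrocyte genes gave 5 higher and 1 lower of 14, beside 6.29% higher and 6.96% lower over all genes. Gfap, the intermediate filament of astrocytes, had 613, 620.0 and 1033 CPM with the Fst vector and 381, 369.8 and 396 CPM in WT (log2 0.94 ± 0.18, edgeR adjusted p = 0.0101), and its call was lost without any 1 WT library or without Fst vector M1 (adjusted p up to 0.0731), in the fit of all 12 libraries (0.357) and with the length and GC offset (0.101). Vim, vimentin, had 53.4, 44.9 and 60.8 CPM against 27.1, 22.2 and 27.7 CPM (log2 1.0 ± 0.14, adjusted p = 0.00203, and 0.441 in the fit of all 12 libraries). Serpina3n, a protease inhibitor that rises in reactive astrocytes, was lower, with 24.7, 24.3 and 33.9 CPM against 39.8, 47.9 and 43.1 CPM (log2 -0.70 ± 0.15, adjusted p = 0.0135), a call lost without WT F1 or WT M2 (adjusted p = 0.0807 and 0.0693) and in the fit of all 12 libraries (0.563). With the GFP vector Gfap had 566, 1555 and 4864 CPM, against 396, 464 and 409 CPM in KO, and Serpina3n 54.9, 128 and 575 CPM against 40.6, 41.1 and 44.5 CPM. Those libraries spread widely, and neither gene was called there (adjusted p = 0.197 and 0.241). Among 15 genes of resting astrocytes 1 was higher, S100b, and 1 lower, Slc4a4.

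For the immune lists, the shares over all genes in the main fit were 6.29% higher and 6.96% lower. Microglia and macrophage genes gave 2 higher (Cd68 and Lyz2) and 3 lower (P2ry12 and Fcrls among them) of 17. When libraries were scaled by their totals, 4 were higher and none lower. The 5 calls were each lost in some fits without a library (adjusted p up to 0.194). Genes of antigen presentation gave 5 higher and 1 lower of 14, with a median of 0.73. Of these calls, H2-D1 alone was kept in every fit without 1 library. The 5 others were lost in some (adjusted p up to 0.15). Cd74 and H2-Ab1, called higher, had WT means of 0.685 and 0.455 CPM, against 3.07 and 1.47 CPM with the Fst vector. They met the filter on low counts mainly through the vector libraries, so their calls add no support. H2-Ab1 was called in none of the 6 fits without 1 library. H2-D1, a class I histocompatibility gene with near-identical relatives, had 59.2, 59.4 and 50.9 CPM with the Fst vector and 29.5, 33.9 and 34.5 CPM in WT (log2 0.75 ± 0.11, edgeR adjusted p = 0.00312). It was higher in GFP vector over KO as well (log2 1.37 ± 0.22, adjusted p = 0.0379). Of 22 interferon response genes 4 were higher, namely Ifit3, Ifit3b, Xaf1 and Gbp2. Gbp2, a guanylate-binding protein, passed the filter through the vector libraries alone, so its call adds no support. It had 2.16, 3.54 and 2.88 CPM against 0.630, 0.751 and 0.794 CPM. Its call was lost in the fit of all 12 libraries (edgeR adjusted p = 0.16) and in male libraries alone (0.0516). The calls of the other 3 were lost in some fits without a library (adjusted p up to 0.174).

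Transcripts of antibody-producing cells were detected with the vectors. Igha, the constant region of immunoglobulin A, had 5.99, 3.44 and 3.43 CPM with the Fst vector and no count in any WT library, at least 14.3-fold higher when each WT library is set at 3 counts. Ighg2b, a constant region of immunoglobulin G, had 2.85, 6.78 and 4.32 CPM against no count in WT, at least 15.5-fold higher by the same floor. Igkc, the kappa light chain, had 99.9, 6.89 and 35.6 CPM against 0.105, 0.107 and 0 CPM, with a wide spread between vector libraries. These genes passed the filter on low counts through the Fst vector libraries alone, where they are high, so no test is given for them. GFP vector libraries also held 4.45, 1.75 and 1.81 CPM of Igha, against 0 in all KO libraries. Igha was 1 of 2 genes with at least 10 counts in every library of the vector table and none in any WT or KO library, the second being a pseudogene. Of 15 T cell genes 2 were high enough to be tested, Lck and Thy1, which mouse neurons also express strongly, and neither passed edgeR's test.

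Heat shock genes gave 6 higher of 14 and none lower, beside 6.29% higher and 6.96% lower over all genes. Hspa1b, an inducible chaperone nearly identical to Hspa1a, had 45.3, 43.0 and 29.4 CPM with the Fst vector and 14.6, 19.1 and 14.2 CPM in WT (log2 1.26 ± 0.19, edgeR adjusted p = 0.00272). The 5 others, Hspa1a, Hspa8, Hspb1, Dnajb1 and Hspe1, lost the call in some fits without a WT library (adjusted p up to 0.158). Of 20 immediate-early genes 1 passed, Btg2, which was higher. Fos had 5.60, 6.38 and 2.21 CPM against 5.98, 4.83 and 4.41 CPM in WT, and Egr1 44.2, 45.1 and 24.9 CPM against 38, 46.2 and 41.7 CPM, and neither passed (adjusted p = 0.819 and 0.559). Genes of the unfolded protein response gave 2 higher of 19, Herpud1 and Ddit3.

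Among 18 neuropeptide and secreted factor genes 3 were higher and 2 lower, beside 6.29% higher and 6.96% lower over all genes. Npy, neuropeptide Y, had 56.3, 39.7 and 53.0 CPM with the Fst vector and 24.2, 24.1 and 20.1 CPM in WT (log2 1.08 ± 0.15, edgeR adjusted p = 0.00224). It stood at 33.5, 106 and 214 CPM with the GFP vector, against 24.8, 29.0 and 29.0 CPM in KO, and its call for the Fst vector was lost in the fit of all 12 libraries (adjusted p = 0.217). Bdnf, the neurotrophin, had 75.6, 76.1 and 192 CPM against 68.4, 60.8 and 62.3 CPM and did not pass (adjusted p = 0.23), with Fst vector F far above the rest. Of 15 glucocorticoid-responsive genes 3 were lower. Zbtb16, a zinc finger repressor strongly induced by glucocorticoids, had 28.5, 55.6 and 39.6 CPM against 105, 114 and 131 CPM (log2 -1.55 ± 0.20, adjusted p = 0.00173). Clock genes gave 1 higher (Npas2) and 3 lower (Per2, Hlf and Bhlhe40) of 18, all lost in some fits without a library (adjusted p up to 0.2).

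Of 32 axon guidance genes 9 were lower, 2 were higher, Robo3 among them, and 21 did not pass. Over all genes 6.96% were lower and 6.29% higher. Robo3, Plxna4 and Nrp1 were the 3 that kept the call in every fit without 1 library. Plxna4, a plexin receptor for semaphorins, had 196, 266 and 242 CPM with the Fst vector and 434, 465 and 448 CPM in WT (log2 -0.98 ± 0.11, edgeR adjusted p = 0.000837). Slit1, a ligand of roundabout receptors, had 342, 351 and 215 CPM against 559.6, 612 and 608 CPM (log2 -1.01 ± 0.17, adjusted p = 0.00436), and its call was lost without Fst vector M1 (adjusted p = 0.0592). Nrp1, a semaphorin coreceptor, was lower by log2 -1.01 ± 0.15 (adjusted p = 0.0024). With the length and GC offset 7 were lower and 5 higher. Of 29 Wnt and Notch genes 3 were higher and 3 lower. Wnt7b and Wnt7a, related Wnt ligands, moved in opposite directions, by log2 -0.87 ± 0.11 and 1.05 ± 0.21 (adjusted p = 0.00154 and 0.0102), and the call of Wnt7a was lost without WT M1 or WT M2 (adjusted p = 0.0608 and 0.0652).

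Smaller groups completed the survey, with 6.29% higher and 6.96% lower over all genes as the shares beside them. Col6a2, a collagen VI chain, was the 1 higher gene of 26 in the matrix list, with 22.1, 24.1 and 33.5 CPM with the Fst vector and 11.2, 6.11 and 5.56 CPM in WT (log2 1.76 ± 0.26, edgeR adjusted p = 0.00272). Cldn5, the tight junction protein of the blood-brain barrier, had 49.8, 35.5 and 37.4 CPM against 17.8, 19.1 and 18.4 CPM (log2 1.11 ± 0.15, adjusted p = 0.00175), and 2 of 18 endothelial and mural genes were higher. Kl, klotho, the 1 of 5 choroid plexus and ependyma genes called, had 11.3, 13.4 and 6.86 CPM against 25.1, 23 and 23.6 CPM (log2 -1.22 ± 0.20, adjusted p = 0.00492). The long noncoding RNA Neat1, the core of paraspeckles, rose by log2 0.85 ± 0.11 (adjusted p = 0.00156) and Miat fell by -0.84 ± 0.11 (adjusted p = 0.00144). Of 15 meningeal fibroblast genes 1 was higher and 1 lower. None of 5 blood genes or 19 cholesterol synthesis genes passed edgeR's test.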

How the data were processed

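WT with KO, and the GFP with the Fst vector group, each have a table of raw counts per Ensembl gene deposited by the authors, per the file headers. Reads were placed on GRCm38, per the submitters' processing notes, while the sources used here name no aligner, counter or strand setting. The tables were joined on 52636 genes, and 18 lines that name no gene and hold no counts were left out. Coordinates came from GENCODE, for 52489 genes. Floors allow for counting error alone. Replicates differed by a chi-square of 2.39 to 31.5 per degree of freedom, so no library was a repeat of another. Pairs of Fst vector libraries ran from 9.67 to 25.8 and pairs of WT libraries from 2.39 to 8.30. The test nonetheless fits 1 dispersion per gene to both groups.

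Tests used edgeR's quasi-likelihood fit with TMM, filterByExpr, robust dispersion and Benjamini-Hochberg adjustment over all tested genes at 0.05 (R 4.3.3, edgeR 4.0.16). Alternatives used DESeq2 1.42.0, limma 3.58.1 and the settings named in the closing section. On simulated counts for Fst vector against WT, 80 of 100 genes changed by log2 1 and 95 of 100 changed by log2 2 were recovered among 15060 genes. There were 16 false calls. The simulated counts held no effect of table, length or GC, so they cannot show how such effects bear on the real calls. They also gave each gene the same dispersion in every group, so they cannot show the effect of an unequal spread.

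Members and the 48 gene lists were chosen with earlier results of these data known. Named genes were Fst, the 15 of smallest p in each direction whose libraries did not overlap and whose mean reached 1 CPM, the 10 of smallest p in the difference of the effects, up to 4 members of each list, and follistatin pathway members; other genes were chosen after their values were seen. Some genes that these rules name are not reported here. Same-named GFP vector and KO libraries deviated together (r = 0.126 for M1, 0.245 for M2 and 0.181 for F), so the numbers were taken to pair them, from the data and not from any label. GFP vector M2 and KO M2 also had the high ribosomal RNA share, and the F libraries shared a sex. Neither was told apart from a pairing.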

Additional observations from a re-analysis of the deposited data

Results flagged for a closer look

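The effect of Fst vector over WT and that of GFP vector over KO differed in 17 genes by the test of the difference in 1 fit of all 12 libraries (edgeR quasi-likelihood, adjusted p under 0.05). Values are given for 16 of them. Each value is the first effect minus the second on the log2 scale, and it also holds the effect of the knockout. Fst differed by 8.182, in part through GFP vector and KO counts near the floor. Trmt9b differed by 2.035, Robo3 by 1.737, Wnk4 by 1.046 and Sept4 by 0.9242. Cnih3 differed by -1.939, Abcb10 by -1.828, Nrip2 by -1.794, Sec24d by -1.743, Vps37b by -1.215, Spsb1 by -1.201 and Hs6st1 by -1.199. Ripor2 differed by -1.056, Chst15 by -1.038, Slc25a42 by -1.028 and Syt13 by -0.8851. Fst, Robo3, Sec24d and Nrip2 passed in all 23 alternative fits, and Ripor2 in 20, Hs6st1 in 19, Abcb10 in 18, Sept4 and Chst15 in 17 and Vps37b in 14. Trmt9b, Slc25a42 and Syt13 passed in 13, Spsb1 in 12, Wnk4 in 11 and Cnih3 in 10 of the 23.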

How the results depend on the processing

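For Fst vector against WT, where 1995 genes were called, the count was 3155 without a filter on low counts, 689 when a change of at least 1.2-fold was tested, 3511 with the ribosomal RNA share as a term and 734 in male libraries alone. Leaving out 1 library gave 493 to 2657. The other settings (library totals, RLE, DESeq2, limma voom, a CPM of at least 1, all 12 libraries, sex, length and GC) gave 1940 to 2280. For GFP vector against KO, where 279 were called, the count was 940 with DESeq2, 1336 without a filter, 11 at 1.2-fold, 12 with the ribosomal RNA term, 78 in males, 559 with all 12 libraries, 33 with the replicate block, 420 with sex as a term, 30 with the length and GC offset and 2 to 1937 without 1 library. For the difference of the effects, where 17 were called, it was 144 with DESeq2, 127 without a filter, 8 at 1.2-fold, 37 with the replicate block, 26 with the length and GC offset and 4 to 58 without 1 library. The causes were not tested. For the 44 genes named by rank of p or by the difference of the effects, 822 of 836 alternative values kept direction and call and 14 lost the call, with none reversed. Over the 251 called genes followed, list members included, 473 of 1506 values without 1 library and 370 of 3262 values under the other settings lost the call, and 1 value reversed. Of 384 counts of called list members, 154 moved by over 1.5 times.

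Replicate names are shared by Fst vector and WT libraries, and a replicate block gave 2316 calls. Same-named libraries correlated at 0.152 for M1, -0.054 for M2 and 0.216 for F. Fst vector M2 correlated best with WT F1 (0.0589), so no pairing by name was taken. Fst vector M1 and F correlated best with the same-named WT library, and whether these are paired cannot be decided from such values. In the fits without 1 library of a group, the remaining libraries set the spread for both groups. With 3 libraries a group, small changes of genes near the floor of 3 counts cannot be called at this depth.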
